A study of Caenorhabditis elegans with 2 samples.

Results

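The 35 genes described here encode the contractile apparatus of the body wall muscle of Caenorhabditis elegans, with its attachments and a few of its control proteins. They were chosen by name, as a list of sarcomere, attachment and muscle control genes, and all 35 were found among the 46135 genes of the authors' deposited table. RNA came from lsm-1(tm3585) larvae, which had been backcrossed to N2, and from wild-type N2 larvae. Both populations were at the L3 stage, grown for 26 hours at 25 °C from synchronised L1 animals, and each genotype had 1 library of whole-animal, rRNA-depleted RNA. The differences below therefore separate these libraries, and nothing in the data says how much of them replicate animals of 1 genotype would show.

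Body wall muscle moves the worm. Its sarcomeres hold thick filaments of myosin and paramyosin, anchored at the M-line, and thin filaments of actin, tropomyosin and troponin, anchored at dense bodies. Dense bodies and M-lines are fixed to the basement membrane by integrin, and so pass the force of contraction to the cuticle. Calcium released in the cell binds troponin and lets myosin pull on actin. LSM-1 is a subunit of the Lsm ring of the cytoplasm, a complex through which messenger RNAs lose their cap before they are degraded.

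Levels are given in FPKM, a fragment count divided by the length of the transcript and the size of the library, so that levels of different genes can be set side by side. A difference is the log2(FPKM + 1) value of the mutant library less that of the N2 library, a scale that understates changes of low genes. Genes with at least 1 FPKM in either library are called measured (14838 genes), and their median difference was 0.24. Among the 12284 measured genes above 0 in both libraries the median FPKM ratio was 1.23, and the differences ran, between the lower and upper quartile, from -0.15 to 0.55. A member at a ratio near 1.23 therefore stood where the typical gene stood. The transcript of lsm-1 itself was at 5.94 FPKM in the mutant and 10.2 FPKM in N2, from about 21 and 30 fragments, with a ratio of 0.581 and a 95% counting interval of 0.312 to 1.03. A level over the whole gene is a weak check of the genotype, since it can miss a partial deletion.

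The defining muscle genes myo-3, unc-54 and hlh-1 were detected in both libraries. All 27 members listed above 0 in both libraries were higher in the mutant library. In bulk RNA of whole larvae, more muscle per animal and more RNA per muscle cell cannot be told apart. The background for this count was 67.6% of measured genes above 0 in both libraries. Against the median of all measured genes, 26 of the 27 were above it, where 50.5% of such genes were. The members' median difference was 0.72, against 0.24 over the measured genes above 0 in both libraries, and the differences of the 27 ran from 0.20 (unc-68) to 1.14 (hlh-1). Their quartiles, 0.48 and 0.90, lay closer together than those of all genes. The shift was modest in size for each member: 4 of the 27 reached 2-fold on this scale (hlh-1, myo-3, pat-2 and deb-1), and the background for a 2-fold higher level was 6.51%. Just inside that line lay deb-1 at 1.001 (ratio 2.29), and just outside it dim-1 at 0.998 (ratio 2.10). With the members listed at 0 in a single library added, 5 of 29 measured members were counted as 2-fold higher, where 13.6% of measured genes were, and 1, atn-1, as 2-fold lower, where 12.2% were. The rule counts ttn-1 as higher and atn-1 as lower by construction, since any value of at least 1 FPKM set against a listed 0 passes it, and no direction is read from either.

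**Figure D1:**
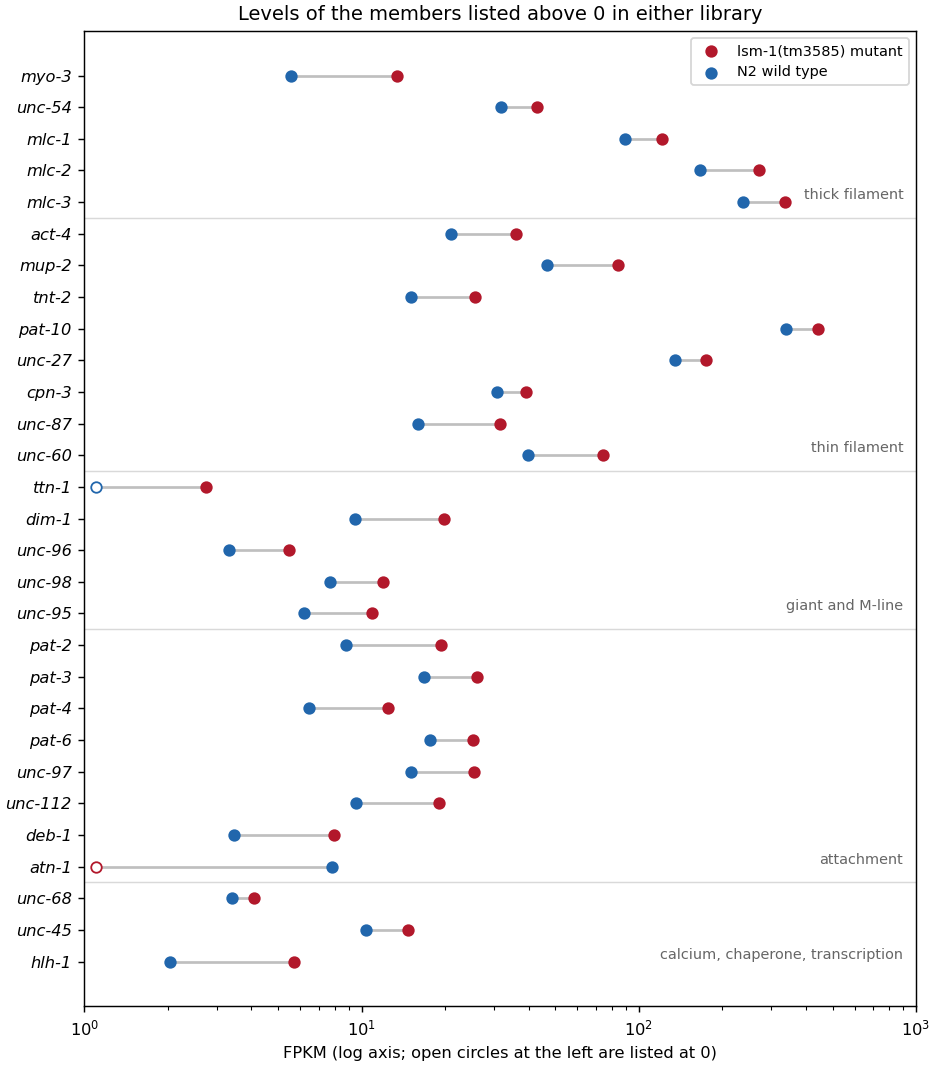
FPKM (log axis) of the 29 members above 0 in either library, grouped by role, with red points for the lsm-1(tm3585) library and blue points for the N2 library. The red point lies to the right of the blue point for every gene except atn-1, which was listed at 0 in the mutant; ttn-1 was listed at 0 in N2.

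**Figure D2:**
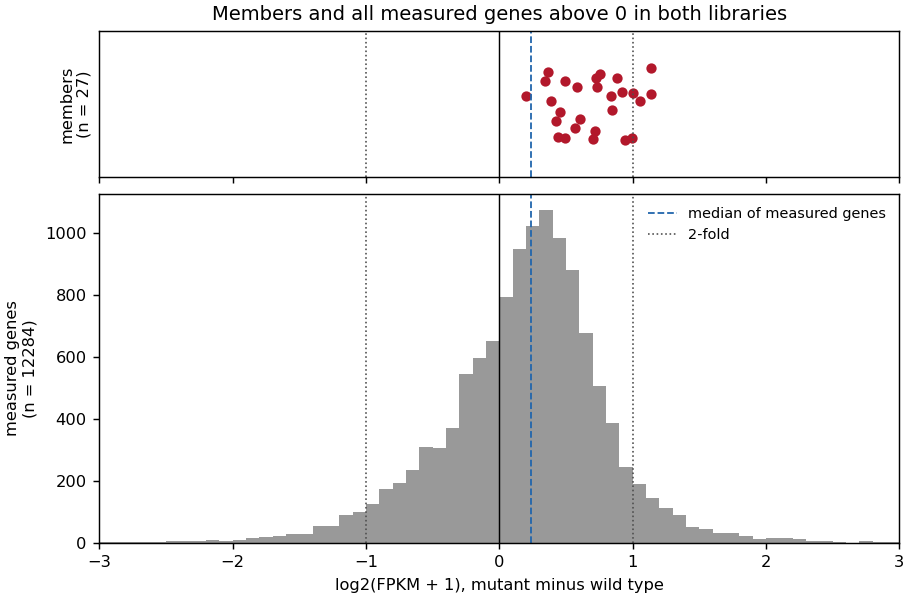
Differences of the 27 members above 0 in both libraries (top, each point 1 gene, vertical spread without meaning) above the histogram of all 12284 measured genes above 0 in both libraries. The members lie between 0.20 and 1.14, and the dashed line marks the median of measured genes at 0.24.

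In the authors' deposited table a usable test existed for 25 of the 35 members, and 3 of them passed it. It was passed in the higher direction by act-4 (q = 0.0434) and deb-1 (q = 0.03), where 2.35% of the 17570 genes with a usable test were called higher. It was passed in the lower direction by atn-1 (q = 9e-05), where 1.41% were called lower. The nearest members that missed the authors' threshold were unc-112 (q = 0.0793) and myo-3 (q = 0.0952) in the authors' deposited table. That test sets the reads of 1 library against those of the other and was made on values without centring on the median gene.

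Thick filaments are built from 2 myosin heavy chains. The transcript of myo-3, which encodes myosin heavy chain A of the filament centre, stood at 13.4 FPKM in the mutant and 5.56 FPKM in N2. Its ratio was 2.42, with a 95% counting interval of 2.11 to 2.78 from about 830 and 281 fragments. That of unc-54, which encodes the major heavy chain B of the filament arms, stood at 43.0 FPKM in the mutant and 31.7 FPKM in N2. Its ratio was 1.36, with a counting interval of 1.27 to 1.44, an interval that lay above the 1.23 of the typical gene and below the interval of myo-3. The level of myo-3 over that of unc-54 was 0.313 in the mutant library and 0.175 in the N2 library.

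The light chains of myosin lay nearer to unc-54 than to myo-3. The essential light chain gene mlc-3 stood at 336 FPKM in the mutant and 238 FPKM in N2, a ratio of 1.41. The regulatory light chain genes stood at 271 FPKM in the mutant and 166 FPKM in N2 for mlc-2 (ratio 1.63), and at 121 and 89.02 FPKM in the same order of libraries for mlc-1 (ratio 1.36). Because mlc-1 and mlc-2 are close copies that can share reads, the division between them is uncertain. The paramyosin gene unc-15, whose product forms the filament core, was listed at 0 in both libraries and marked as a failed estimate.

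The troponin genes of the thin filament split by level. The most abundant member of all was pat-10, which encodes troponin C, the calcium-binding subunit, at 445 FPKM in the mutant and 339.9 FPKM in N2 (ratio 1.31, counting interval 1.24 to 1.38). The troponin I gene unc-27 stood at 174 FPKM in the mutant and 135 FPKM in N2 (ratio 1.29, counting interval 1.18 to 1.41). The interval of pat-10 lay just above the 1.23 of the typical gene, and that of unc-27 included it. The troponin T genes lay further out: mup-2 stood at 84.1 FPKM in the mutant and 46.7 FPKM in N2 (ratio 1.80, counting interval 1.62 to 2.01). Its relative tnt-2 stood at 25.6 FPKM in the mutant and 15.01 FPKM in N2 (ratio 1.70), while tnt-3 was listed at 0 in both libraries. The level of mup-2 over that of pat-10 was 0.189 in the mutant library and 0.137 in the N2 library.

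Actin and the proteins that bind it were higher to differing degrees. The actin gene act-4 stood at 36.1 FPKM in the mutant and 20.97 FPKM in N2 (ratio 1.72, counting interval 1.48 to 2.01). Actin genes are near-identical in sequence, so reads can be divided wrongly among them. For unc-87, which encodes an actin-bundling protein with calponin-like repeats, the levels were 31.6 FPKM in the mutant and 15.97 FPKM in N2. The authors' test of unc-87 was marked as failed, and in the further pair of FPKM columns it was listed at 0 in N2. The calponin gene cpn-3 had 1 of the smallest ratios, with 39.1 FPKM in the mutant and 30.7 FPKM in N2, and its counting interval of 0.997 to 1.63 included equality.

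Filament turnover was represented by unc-60, which encodes ADF/cofilin, a protein that severs actin filaments. It stood at 74.5 FPKM in the mutant and 39.9 FPKM in N2 (ratio 1.87, counting interval 1.57 to 2.24). Its partner unc-78, which encodes actin-interacting protein 1, and lev-11, which encodes tropomyosin, were listed at 0 in both libraries.

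The genes of the giant sarcomere proteins were mostly without an estimate. The genes of twitchin (unc-22) and obscurin (unc-89) were listed at 0 in both libraries. The titin gene ttn-1 was listed at 2.74 FPKM in the mutant and at 0 in N2, its test was marked as failed, and the further pair listed it at 0 in both. No direction is read for these 3 genes, and ttn-1 enters the count of 2-fold members only through its listed 0. Of the smaller proteins, dim-1, which encodes an immunoglobulin-repeat protein that keeps muscle lattice order, stood at 19.9 FPKM in the mutant and 9.45 FPKM in N2 (ratio 2.10, counting interval 1.77 to 2.50). The authors' test of dim-1 carried the mark of a failure.

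The genes of M-line and LIM-domain proteins had low levels and smaller ratios than dim-1. The LIM-domain gene unc-95 stood at 10.9 FPKM in the mutant and 6.17 FPKM in N2. The zinc-finger gene unc-98 stood at 11.9 FPKM in the mutant and 7.71 FPKM in N2, and unc-96, whose product binds UNC-98 at the M-line, stood at 5.46 and 3.32 FPKM in the same order of libraries. Their ratios of 1.76, 1.54 and 1.65 rest on about 51, 70 and 43 fragments in N2, and the lower ends of the counting intervals were 1.24, 1.15 and 1.12. Only for unc-95 of these 3 genes did the interval lie above the 1.23 of the typical gene.

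The attachment complex held the highest median of the member groups, at 0.85 over its 7 genes above 0 in both libraries. The integrin alpha chain gene pat-2 stood at 19.3 FPKM in the mutant and 8.77 FPKM in N2 (ratio 2.20, counting interval 1.92 to 2.53). The integrin beta chain gene pat-3 stood at 26.2 FPKM in the mutant and 16.8 FPKM in N2 (ratio 1.56, counting interval 1.37 to 1.77). The intervals of the 2 chains did not overlap, and the alpha over beta level was 0.737 in the mutant library and 0.521 in the N2 library. PAT-3 is the only integrin beta chain of the worm and also serves cells outside muscle.

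The adaptors that bind the integrin tail lay between ratios of 1.43 and 1.99. The kindlin gene unc-112 stood at 18.98 FPKM in the mutant and 9.54 FPKM in N2 (ratio 1.99, counting interval 1.67 to 2.37). The integrin-linked kinase gene pat-4 stood at 12.4 FPKM in the mutant and 6.46 FPKM in N2 (ratio 1.92). The PINCH gene unc-97 stood at 25.5 FPKM in the mutant and 15.1 FPKM in N2 (ratio 1.69). These 3 counting intervals overlapped each other. The parvin gene pat-6 had the lowest ratio of the 4 adaptors, 1.43, with 25.2 FPKM in the mutant and 17.6 FPKM in N2, and in the authors' deposited table its test carried the mark of a failure.

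Of the actin linkers at the dense body, only deb-1 had values above 0 in both libraries. The vinculin gene deb-1 was at 7.95 FPKM in the mutant and 3.47 FPKM in N2 (ratio 2.29, counting interval 1.84 to 2.88). The alpha-actinin gene atn-1 had 0 in the mutant column and 7.83 FPKM in N2, and the further pair of columns held 0 for both. A value of exactly 0 can be a failed estimate in this table, so atn-1 is not read as lost although it is called lower in the authors' deposited table. It is 1 of the 2 members listed at 0 in a single library, where 17.2% of measured genes were so listed.

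Outside the filaments, the widest contrast lay between hlh-1 and unc-68. The gene hlh-1, which encodes the worm's MyoD-family transcription factor, stood at 5.71 FPKM in the mutant and 2.04 FPKM in N2. Its ratio of 2.79 was the highest of the 27, but about 60 and 18 fragments lay behind it and the counting interval ran from 1.59 to 4.91. The ryanodine receptor gene unc-68, which encodes the calcium release channel of the sarcoplasmic reticulum, stood at 4.09 FPKM in the mutant and 3.42 FPKM in N2. Its ratio of 1.196 was the lowest, its counting interval ran from 1.06 to 1.35, and the further pair listed it at 0 in both libraries. The myosin chaperone gene unc-45 stood at 14.7 FPKM in the mutant and 10.4 FPKM in N2 (ratio 1.41). Its level over that of its client unc-54 was 0.341 in the mutant library and 0.328 in the N2 library, the closest match of the 9 within-library ratios computed.

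**Figure D3:**
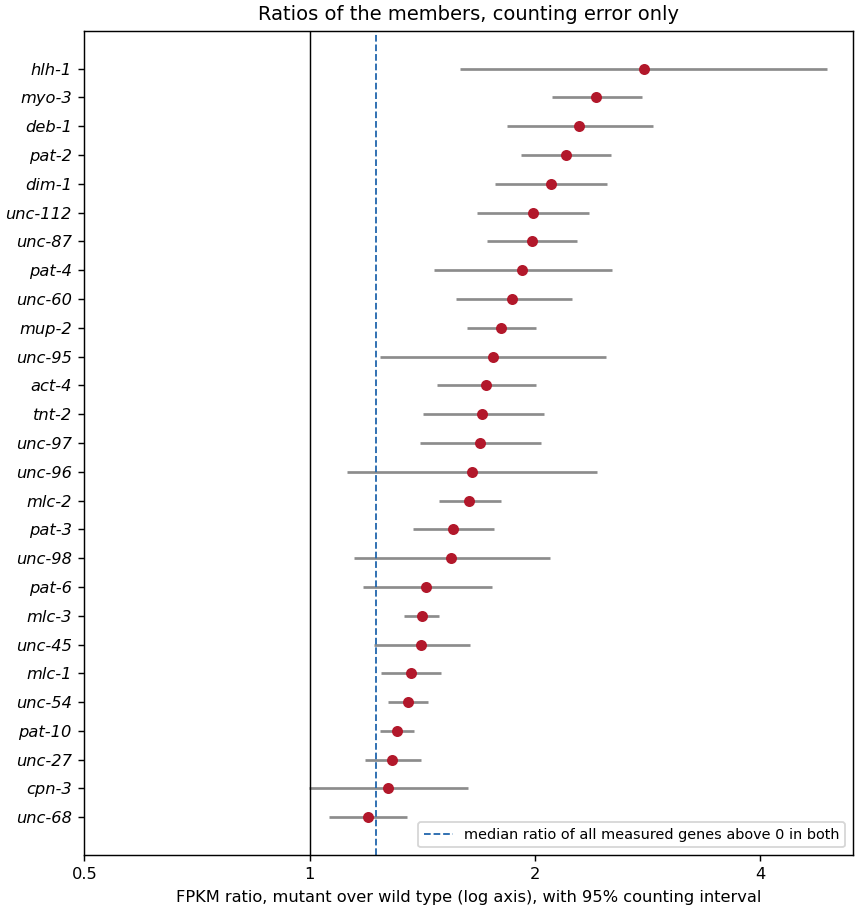
FPKM ratio of mutant over wild type (log axis) for the 27 members above 0 in both libraries, with horizontal bars for the 95% counting interval. The dashed line marks the median ratio of 1.23 over measured genes above 0 in both libraries. Genes run from the highest ratio (hlh-1) at the top to the lowest (unc-68) at the bottom.

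Within the list, higher levels tended to go with smaller ratios, except in the lowest range of levels. Over the 27 members the Spearman correlation across genes between ratio and mean level was -0.45. It was 0.10 over the 12284 measured genes above 0 in both libraries, and -0.03 over the 7810 of these with a mean level of at least 3 FPKM, as all 27 members had. All points share the same libraries, and genes are not independent replicates. The 5 members above 100 FPKM (geometric mean of the libraries) had a median difference of 0.44, against 0.24 for all 496 genes at that level. The 10 members between 10 and 30 FPKM had a median of 0.74, against 0.33 for 2164 genes, and the 5 between 5 and 10 FPKM had 0.85, against 0.33 for 2462 genes. The 4 members between 30 and 100 FPKM had 0.63, against 0.30 for 760 genes. The 3 between 1 and 5 FPKM (hlh-1, unc-68 and unc-96) had 0.58, against 0.17 for 5406 genes. The members' median was thus above that of genes of like level in each of these ranges.

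The X chromosome carried 12 of the 35 members. Measured genes above 0 in both libraries had a median difference of 0.32 on the X and 0.23 on the autosomes. The 10 members on the X with values above 0 in both libraries had a median of 0.71, and the 17 on the autosomes had 0.73. Whether the members differ in this from other genes was not tested.

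The 6 members listed at 0 in both libraries make up a larger part of the list than the 6.33% seen over protein-coding genes. They are unc-15, lev-11, tnt-3, unc-22, unc-89 and unc-78, and 4 of them have 5 or more annotated transcripts. Of the 8 members with that many transcripts, 4 were listed at 0 in both libraries and 1 (ttn-1) in a single library. Of the 18 members with 1 transcript, none was. Over protein-coding genes the share listed at 0 in both libraries was 13.2% for 5 or more transcripts and 5.63% for 1 transcript. For these genes the table gives no level, and nothing is said of their expression.

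Related genes that serve other cells were compared family by family, a grouping chosen after their values were seen. The pharyngeal myosin genes stood at 5.68 FPKM in the mutant and 3.57 FPKM in N2 for myo-1 (ratio 1.59), and at 2.85 and 2.54 FPKM in the same order for myo-2 (ratio 1.12). The non-muscle heavy chain genes had ratios of 0.850 (nmy-1) and 1.18 (nmy-2). The non-muscle light chain gene mlc-4 stood at 43.4 FPKM in the mutant and 45.2 FPKM in N2, and mlc-5 at 44.9 FPKM in the mutant and 50.3 FPKM in N2. Their counting intervals, 0.790 to 1.16 and 0.733 to 1.09, lay below those of mlc-1, mlc-2 and mlc-3. Summed, the muscle light chains stood at 728 FPKM in the mutant and 493 FPKM in N2, against 88.3 FPKM in the mutant and 95.5 FPKM in N2 for the non-muscle pair.

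Among troponins and actins, as among heavy chains, the separation by tissue was less clear than among light chains. The pharyngeal genes tnc-2, tni-4 and tnt-4 had ratios of 1.91, 1.53 and 1.48, within the range of the body wall genes. The further troponin I gene tni-1 had a ratio of 2.29 (60.9 FPKM in the mutant, 26.6 FPKM in N2). Of the actin genes, act-1 was at 170.3 FPKM in the mutant and 67.2 FPKM in N2, act-3 at 156 FPKM in the mutant and 68.1 FPKM in N2, and act-2 at 62.3 FPKM in the mutant and 39.3 FPKM in N2. The intestinal actin gene act-5 had a ratio of 1.52. The 4 actin genes grouped here as muscle actins (act-1 to act-4) together stood at 424 FPKM in the mutant and 196 FPKM in N2. That sum depends less than the single values on how reads were divided among them. In whole-animal RNA it cannot be assigned to muscle alone.

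**Figure D4:**
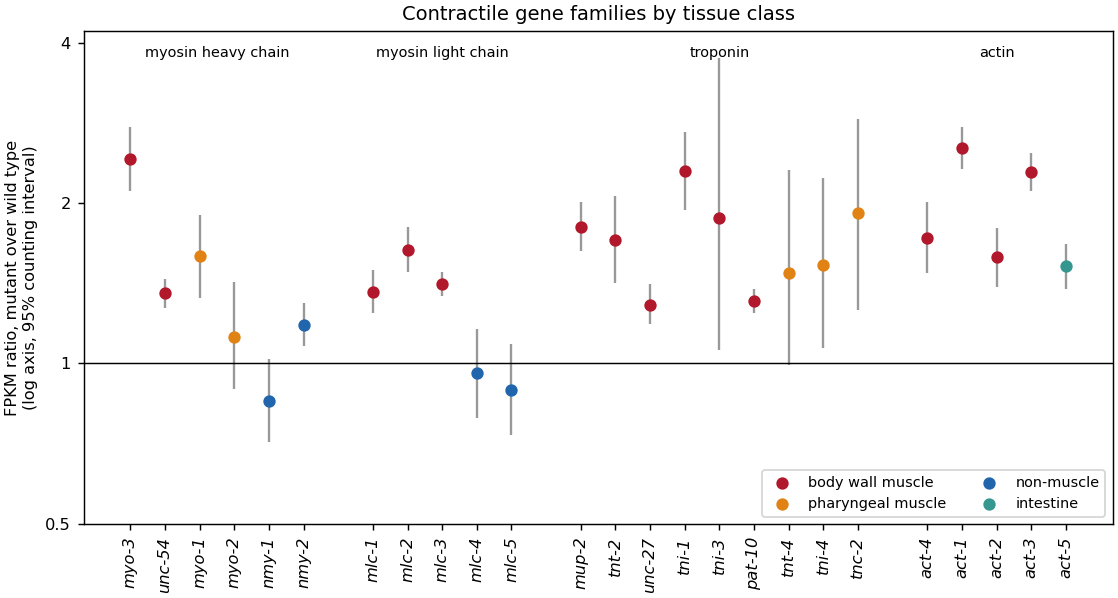
FPKM ratio of mutant over wild type (log axis) with 95% counting intervals for 25 genes of 4 contractile families, coloured by the tissue class they are known for. The non-muscle light chains mlc-4 and mlc-5 lie at 0.960 and 0.893, below the muscle light chains mlc-1, mlc-2 and mlc-3 at 1.36 to 1.63. Heavy chains, troponins and actins of different tissues overlap.

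Other muscle genes were also mostly higher in the mutant, but their list medians over genes above 0 in both libraries were below the 0.72 of the members. The background for the counts of higher genes, here and in the lists below, was 67.6% of measured genes above 0 in both libraries. Of 26 further filament and attachment genes found in the table, 20 were measured and above 0 in both libraries, 18 of them were higher in the mutant, and their median difference was 0.55. The highest were act-1, which is called higher in the authors' deposited table (q = 0.000322), and unc-23, which encodes a BAG-domain co-chaperone and stood at 10.5 FPKM in the mutant and 3.87 FPKM in N2. The lowest were zyx-1, which encodes zyxin and was listed at 0 in the mutant (7.59 FPKM in N2, called lower in the authors' deposited table), and aipl-1, at 9.60 FPKM in the mutant and 10.8 FPKM in N2. As with atn-1, the further pair listed zyx-1 at 0 in both libraries.

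Genes of excitation and calcium handling had a median of 0.45 over 17 genes above 0 in both libraries, and 14 of the 17 were higher in the mutant. Against the median of all measured genes, 13 of the 17 were above it, where 50.5% of such genes were. The junctophilin gene jph-1 was at 6.35 FPKM in the mutant and 2.46 FPKM in N2. The acetylcholine receptor subunit gene lev-1 was at 5.89 FPKM in the mutant and 2.70 FPKM in N2. The potassium channel gene twk-18 and the sodium channel gene unc-105 were listed at 0 in the mutant. None of these 4 genes passed the authors' test. The 11 measured dystrophin complex genes were all higher, with a median of 0.41, and 9 of them were above the median of measured genes. Of these 11, sgcb-1 (4.17 FPKM in the mutant, 3.74 FPKM in N2) and dys-1 (4.14 FPKM in the mutant, 3.46 FPKM in N2) were lowest. Highest were stn-1 (10.04 FPKM in the mutant, 5.38 FPKM in N2) and sgca-1 (5.39 FPKM in the mutant, 2.68 FPKM in N2).

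Regulators of muscle fate and splicing were higher in all 8 measured genes above 0 in both libraries, with a median of 0.67. The gene hnd-1 of this list, below 1 FPKM, was lower (0.146 FPKM in the mutant, 0.534 FPKM in N2) on about 1 and 4 fragments. The serum response factor gene unc-120, which acts beside hlh-1 in muscle specification, stood at 23.9 FPKM in the mutant and 8.94 FPKM in N2, with a ratio of 2.68 and a counting interval of 2.07 to 3.49. It narrowly missed the threshold in the authors' deposited table (q = 0.0505). The zinc-finger gene pat-9 was listed at 7.45 FPKM in the mutant and at 0 in N2. At the low end, mls-1 was at 1.58 FPKM in the mutant and 1.18 FPKM in N2, and fozi-1 at 2.54 FPKM in the mutant and 1.73 FPKM in N2. Among 6 chaperone genes that act with UNC-45 or on its turnover, the Hsp70 gene hsp-1 was at 73.0 FPKM in the mutant and 30.7 FPKM in N2 and is called higher in the authors' deposited table (q = 0.0128). The Hsp90 gene daf-21, whose product works with UNC-45, was at 149 FPKM in the mutant and 99.8 FPKM in N2. The ATPase gene cdc-48.2 was at 23.4 FPKM in the mutant and 13.8 FPKM in N2. The ubiquitin ligase gene ufd-2, at 3.40 FPKM in the mutant and 3.20 FPKM in N2, and cdc-48.1, at 43.02 FPKM in the mutant and 33.96 FPKM in N2, were at the low end of this group.

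**Figure D5:**
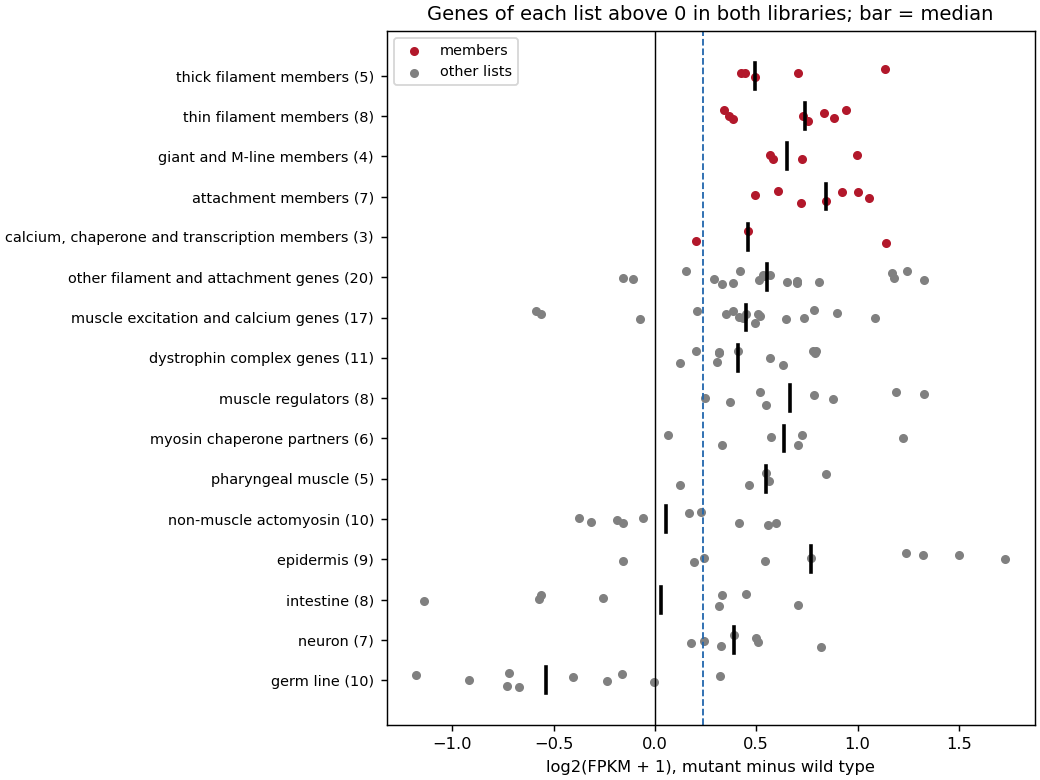
Differences in log2(FPKM + 1), mutant minus wild type, for the genes of each list above 0 in both libraries, with the number of genes in parentheses, a black bar at each list's median and a dashed line at the median of all measured genes (0.24). The 5 groups of members lie mostly right of the dashed line, with medians from 0.46 to 0.85, and the germ line list lies mostly left of 0 with a median of -0.54.

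Markers of other tissues differed between the libraries as well. Epidermal genes had a median close to that of the members and a wider spread. The members had a median of 0.72 and quartiles of 0.48 and 0.90. The 9 epidermal genes above 0 in both libraries had a median of 0.77 and quartiles of 0.24 and 1.32, and 8 of the 9 were higher in the mutant. Of these, 4 were 2-fold higher and 3 passed the authors' test in the authors' deposited table, namely the GATA factor genes elt-1 (8.05 FPKM in the mutant, 1.73 FPKM in N2, q = 0.000526) and elt-3 (16.6 FPKM in the mutant, 6.06 FPKM in N2, q = 0.0124), and grd-10 (84.0 FPKM in the mutant, 29.05 FPKM in N2, q = 0.0255). The lowest were the cuticle collagen genes rol-6 (115.3 FPKM in the mutant, 129 FPKM in N2) and dpy-13 (46.9 FPKM in the mutant, 40.97 FPKM in N2). The epidermal list summed to 397 FPKM in the mutant and 288 FPKM in N2.

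All 10 germ line genes were above 0 in both libraries and 9 were lower in the mutant, with a summed level of 42.8 FPKM in the mutant and 61.6 FPKM in N2. The lowest was the germ granule helicase gene glh-2 (1.02 FPKM in the mutant, 3.56 FPKM in N2), which is called lower in the authors' deposited table (q = 0.00976), then him-3 (2.79 FPKM in the mutant, 6.16 FPKM in N2). The highest were mex-3 (5.75 FPKM in the mutant, 4.41 FPKM in N2), the 1 gene of the list that was higher, and fbf-2 (1.34 FPKM in the mutant, 1.35 FPKM in N2). The 7 neuronal genes above 0 in both libraries were all higher, and they summed to 148 FPKM in the mutant and 108 FPKM in N2, with ida-1 (19.6 FPKM in the mutant, 17.2 FPKM in N2) and unc-119 (5.88 FPKM in the mutant, 4.82 FPKM in N2) the lowest. The other 3 neuronal genes were listed at 0 in N2, among them rab-3 (10.3 FPKM in the mutant) and sbt-1 (13.8 FPKM in the mutant), and sbt-1 is called higher in the authors' deposited table.

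The 8 intestinal genes split into 4 higher and 4 lower, with sums of 269.8 FPKM in the mutant and 261 FPKM in N2. Their ends were pept-1 (14.4 FPKM in the mutant, 8.45 FPKM in N2) and ifb-2 (48.3 FPKM in the mutant, 35.1 FPKM in N2) on the higher side, and mtl-2 (26.3 FPKM in the mutant, 59.02 FPKM in N2) and elt-2 (1.41 FPKM in the mutant, 2.59 FPKM in N2) on the lower side. The pharyngeal muscle list, of which 5 genes were measured and all 5 were higher, had a median of 0.55. Its remaining genes stayed below 1 FPKM and were lower in the mutant. They were ceh-22 (0.709 FPKM in the mutant, 0.865 FPKM in N2) and myo-5 (0.712 FPKM in the mutant, 0.757 FPKM in N2). The non-muscle actomyosin list had 5 genes higher and 5 lower, with a median of 0.06, from cyk-1 (2.79 FPKM in the mutant, 3.91 FPKM in N2) and ani-1 (5.73 FPKM in the mutant, 7.37 FPKM in N2) to rho-1 (15.6 FPKM in the mutant, 10.3 FPKM in N2) and act-5 (105.4 FPKM in the mutant, 69.2 FPKM in N2). In all, the 35 muscle members made up 0.880% of the summed FPKM of protein-coding genes in the mutant library and 0.734% in the N2 library. What part the balance of tissues had in the members' values was not tested.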

How the data were processed

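RNA of 2 libraries, 1 per genotype, was compared. The authors deposited 1 table with 2 pairs of FPKM columns, a log2 fold change, a test score, and a p-value and q-value per gene. Per the submitters' processing notes TopHat, Cufflinks and Cuffdiff were used; their versions, the genome build and the annotation were not given in the sources used here. The first pair, beside the test, was used; it was 1.14 times the further pair in both libraries at the median. Differences used a pseudocount of 1 FPKM and genes with at least 1 FPKM in either library. No p-value was computed, since there was no replication. Members and lists were chosen with earlier results of these data known. Every member is named; of the other lists, the 2 highest and 2 lowest measured genes and those past the authors' test were to be named, and further genes were chosen after their values were seen.

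Fragments were estimated from Ensembl release 115 exon lengths, found for 45688 genes. In 51.6% of 3710 low single-transcript genes the ratio of the libraries lay within 0.2% of a quotient of whole numbers up to 8, once divided by 1 shared step, against 2.35% at other steps. By these steps the FPKM values are scaled to about 10.4 M fragments for the mutant library and to 8.55 M for the N2 library, the scaling of the deposited values included. Counting intervals (exact Clopper-Pearson, 95%) cover counting error only and treat genes with several transcripts as their joined exons. Calculations used Python 3.11.15, pandas 2.3.3 and scipy 1.17.1.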

Additional observations from a re-analysis of the deposited data

How the results depend on the processing

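With equal FPKM sums that leave out ribosomal RNA, 27 of the 27 members above 0 in both libraries stayed higher in the mutant. That scaling is smaller than the lowest member ratio, 1.196 for unc-68, so it could turn no direction, and it left unc-68 at 0.08. The summed FPKM of protein-coding genes had a larger ratio of mutant over N2, 1.22, which is above the ratio of unc-68. Changing the pseudocount or the filter cannot turn a direction, so the counts at those settings were fixed in advance. They were 27 of 27 without a filter and on adding 0.1 FPKM, and 26 of 26 at 5 FPKM or more. They were also 25 of 25 above 0 in all 4 columns, and 24 of 24 with a usable test. In the further FPKM pair, which lists unc-68 at 0 in both libraries, 26 of 26 were higher. That count includes unc-87, which is listed at 0 in N2 there, so no direction is read from it. The further pair comes from the same libraries and is no independent check. Subtracting the median of measured genes left 26 of 27 above 0, with unc-68 at -0.03. Equal sums moved the median of all measured genes from 0.24 to 0.10. The members' median difference of 0.72 was 0.75 with the pseudocount of 0.1, 0.58 without a filter, 0.57 with equal sums and 0.48 after centring. The value without a filter counts the 6 members listed at 0 in both libraries as differences of 0, although they have no estimate. The 5 members counted as 2-fold higher, which include ttn-1 because it is listed at 0 in N2, were 2 with equal sums (ttn-1 and hlh-1) and 1 after centring (ttn-1). The 1 member counted as 2-fold lower, atn-1, was 0 with the further pair and 0 under the limit to genes above 0 in all 4 columns, because the further pair lists it at 0 in both libraries. Among members above 0 in all 4 columns, 2 of 25 passed the authors' test. Of the members past 2-fold or past the authors' test, none with values above 0 in both libraries changed direction. No direction is read for ttn-1 and atn-1, which the further pair lists at 0 in both libraries. No replicate could be left out, and no paired analysis was possible because each genotype had 1 library. Depth limits hlh-1, unc-96, unc-98 and unc-95 most, whose wild-type values rest on about 18, 43, 70 and 51 fragments.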
